A study of Mus musculus with 16 samples.

Results

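The Schwann cell and myelin genes described here are 30 genes chosen by symbol, from 47729 genes with values: 7 myelin membrane proteins, 5 adhesion and cytoskeletal link proteins of glia, 5 adhesion proteins of axons and the node of Ranvier, 2 enzymes of myelin lipid synthesis, 4 transcription factors with the secreted signal Dhh, 3 other glial genes and 3 genes of central nervous system myelin. The study ablated Lgr5+ supporting cells of the neonatal mouse cochlea and profiled the translating mRNA of GLAST-Cre+ cells with the RiboTag allele, in which Cre adds an HA tag to the ribosomal protein Rpl22. Control mice were GLAST-CreERT/+; Rpl22-HA/+, and DTR mice also carried Lgr5-DTR/+, the diphtheria toxin (DT) receptor under Lgr5. Per the methods of the study, both genotypes received DT and tamoxifen at P1 and were taken at P4, whereas the labels give the treatment as none for control and as DTR treated for DTR. Each of 8 pools of cochleae (4 control, 4 DTR) gave an input library, from a small share of the homogenate, and an IP library, from the ribosomes precipitated with anti-HA, hence 4 libraries in each of control input, DTR input, control IP and DTR IP. GLAST (Slc1a3) is a glutamate transporter of astroglia and of cochlear supporting cells, so the tag can mark any cell with an active GLAST driver and not 1 cell type. Since tamoxifen induces the Cre, the tag need not mark all such cells. With a reporter, the study found only part of the cells of the greater epithelial ridge labelled. Before freezing, the spiral ganglia had been dissected away, along with Reissner's membrane and the lateral wall.

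Schwann cells descend from the neural crest and wrap the axons of peripheral nerves. Sox10 maintains the lineage at every stage and, with Pou3f1 and later EGR factors, turns on the genes of compact myelin, whose membranes are held together by small proteins such as Mbp and Pmp22 and are rich in galactolipids. Adhesion proteins fix the glial membrane to the axon along the internode and at the node of Ranvier. In the cochlea, Schwann cells accompany the axons of spiral ganglion neurons up to the organ of Corti. The axons enter it without a myelin sheath, and supporting cells surround them there. Sox10 is also expressed in the otic epithelium.

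Values are deposited as CPM, scaled to the reads counted on genes, and each library held between 28089836 and 41966310 such reads, so that 3 reads were worth 0.0715 to 0.107 CPM. Log2 fold changes (LFC) were taken on log2(quantile-normalized CPM + 0.5) and are given with standard errors. A gene passed the test with an adjusted p under 0.05 in limma (Benjamini-Hochberg over 16994 genes tested, 4 libraries per group). The criteria of the study required in addition an absolute LFC of at least 1 after damage, or 2 between IP and input, and a lowest value in the higher group more than 1.5 times the highest in the lower group. The spans of 18 of the 30 genes overlap other annotated genes, whose reads could not be told apart from theirs where bases are shared. These include Mbp, Pllp, Ncmap, Cnp, Prx, Gldn, Pou3f1 and S100b on the opposite strand and Nrcam on its own strand. Lgr5 itself lay between 59.0 and 66.1 CPM in control input and between 11.2 and 19.6 CPM in DTR input. Libraries of replicates 1 and 2 stood apart from replicates 3 and 4 in genes of other cells, of which 2 were chosen after their values were seen. Nefl, a neurofilament of neurons, stood at 273, 244, 66.1 and 56.2 CPM in control input replicates 1 to 4 and at 228, 130, 68.8 and 23.1 CPM in DTR input. Dct, an enzyme of melanocytes, stood at 28.8, 39.8, 2.56 and 2.07 CPM in control input.

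The markers of Schwann cells were present in every library. The 12 Schwann cell markers, 8 of which are among the 30 genes, summed to between 3004 and 5128 CPM in control input, 1538 and 2346 CPM in DTR input, 959 and 1417 CPM in control IP, and 733 and 995 CPM in DTR IP. The genes restricted to central myelin, Mobp, Mog and Opalin, did not reach 0.5 CPM in all libraries of any group and were not tested. Mobp ranged from 0.0242 to 0.572 CPM, Mog from 0 to 0.295 CPM, and Opalin was at 0 in all but 3 libraries. The remaining 27 genes were tested. Per kb of exon, mean levels in control input ran from 443 CPM per kb for Pmp22, 275 for S100b, 199 for Fabp7, 158 for Mbp and 152 for Cnp down to 0.683 for Gfap and 0.553 CPM per kb for Cntn2.

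After ablation, 12 of the genes were lower in the input and 15 did not pass the test. Of the 27 genes tested, 12 fell and 0 rose in DTR input against control input, where 5.21% of all genes tested fell and 7.17% rose. These were Mbp, Pmp22, Pllp, Cnp, Mag, Cadm4, Prx, Nrcam, Fa2h, Ugt8a, Pou3f1 and Dhh, with LFC from -1.37 (Mbp) to -0.69 (Dhh). Prx and Nrcam met the criteria of the study, as did 1.00% of all genes tested in that direction. The median LFC of the 27 genes was -0.57, against -0.02 over all genes tested. In 13 genes every DTR input library lay below every control input library, against 7.73% of all genes tested. No gene of the 27 rose at an unadjusted p under 0.05 in limma, edgeR or DESeq2. With a block for the replicate number, 16 genes were lower, against 7.99% of all genes. In bulk tissue, fewer Schwann cells and less of these mRNAs per cell cannot be told apart. Nor can fewer other cells that make these mRNAs, or a different share of nerve left after dissection.

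Most of these mRNAs were lower in the IP, which enriches RNA on the tagged ribosomes of GLAST-Cre+ cells, than in the input. In control cochleae 18 of 27 genes were lower and 2 (S100b and Fabp7) were higher in IP than in input, against 20.7% and 19.3% of all genes tested. In 17 genes every control IP library lay below every control input library, against 21.5% of all genes. Pmp22, Mag, Prx, Gldn and Dhh met the criteria of the study in the lower direction, which 0.471% of all genes did. In DTR cochleae 18 genes were lower and 2 (S100b and Ncmap) higher in IP, against 20.5% and 18.6% of all genes, and Prx alone met the criteria, which 0.247% did. There were 17 genes lower in IP in both treatments, which at most 20.5% of all genes tested could be. The median LFC between IP and input was -1.07 in control and -0.86 in DTR, against 0.00 and -0.03 over all genes tested. Of the 12 genes that fell in DTR input, 10 were also lower in control IP than in control input, as were 18 of the 27. The exceptions were Pllp and Fa2h. Both comparisons use the same control input libraries, so a high value there lowers both LFC and the overlap is partly built in. The share of all genes lower in both was not counted, and no conclusion is drawn from the overlap.

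**Figure D1:**
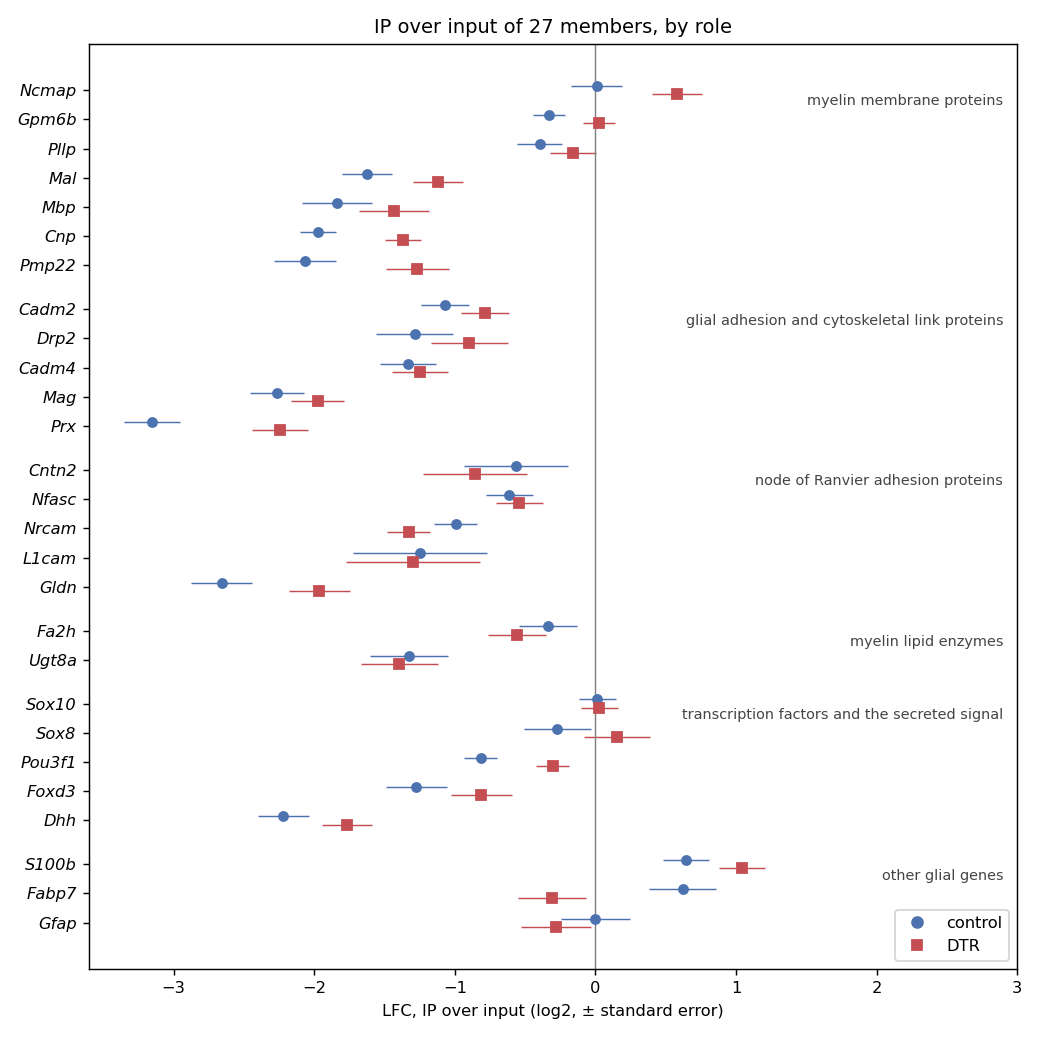
LFC between IP and input (x axis, log2, with standard error) for the 27 tested genes on the y axis, grouped by role, with circles for control and squares for DTR cochleae (4 libraries per group). Most points lie left of 0, with Prx in control at -3.15, while Sox10 lies at 0.01 in control and S100b at 1.04 in DTR.

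Within the IP, genes passed the test in both directions after damage, and the rises were less stable than the falls. In DTR IP against control IP, 7 genes fell (Mbp, Pllp, Cadm4, Nrcam, Fa2h, Ugt8a and Fabp7) and 4 rose (Ncmap, Gpm6b, Cadm2 and S100b). These were 25.9% and 14.8% of the 27 genes, against 7.30% and 8.44% of all genes tested. Leaving out 1 library in turn gave 7 to 8 genes that fell and 2 to 4 that rose. Nrcam met the criteria of the study, as did 1.34% of all genes in that direction. In 6 genes every DTR IP library lay below every control IP library, against 6.54% of all genes. The median LFC was -0.32, against 0.00 over all genes. With the block, 9 genes were lower and 5 higher, against 11.1% and 12.2% of all genes. Of the 12 genes that fell in the input, 6 fell in the IP as well (Mbp, Pllp, Cadm4, Nrcam, Fa2h and Ugt8a) and 6 did not pass the test there (Pmp22, Cnp, Mag, Prx, Pou3f1 and Dhh). The interaction, which is the LFC after damage in IP minus that in input, tests that difference. It was positive for 20 genes and negative for 7, with a median of 0.36 against -0.01 over all genes. In limma 0 of the 27 genes passed in either direction, against 0% (positive) and 0.0118% (negative) of all genes tested. At an unadjusted p under 0.05, 7 genes were positive and 1 negative in limma, 5 and 1 in edgeR, and 6 and 1 in DESeq2, with 0 passing the adjusted threshold in either tool. With the pool as a block, since each pool gave both an input and an IP library, Prx (LFC 0.91, adjusted p = 0.036) and Pmp22 (LFC 0.80, adjusted p = 0.04) passed, against 0.0883% of all genes in that direction. Both lay further below control in the input than in the IP.

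**Figure D2:**
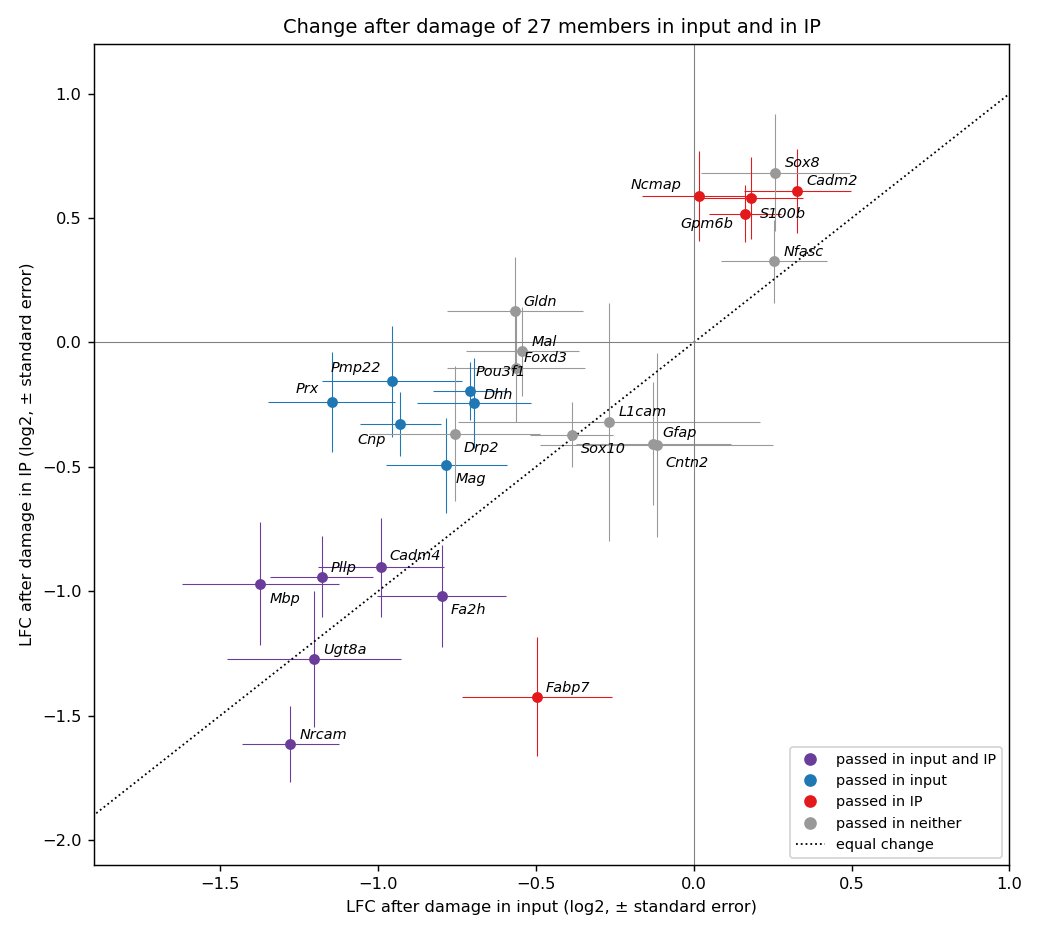
LFC after damage in input (x axis) against LFC after damage in IP (y axis), log2 with standard errors, for the 27 tested genes, coloured by the comparison in which they passed the test, with a dotted line of equal change. Prx and Pmp22 lie above the line with LFC of -0.24 and -0.16 in IP over all 4 replicates, and Nrcam and Fabp7 lie below it.

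Of the 7 myelin membrane proteins, 4 fell in DTR input, against 5.21% of all genes tested. Mbp, the basic protein that joins the cytoplasmic faces of compact myelin (ENSMUSG00000041607, chromosome 18, 82475146 to 82585637 on the plus strand, GRCm38), stood at 1728, 1609, 946 and 1075 CPM in control input replicates 1 to 4 and at 458, 392, 653 and 505 CPM in DTR input. In IP it stood at 449, 460, 268 and 242 CPM in control and at 163, 149, 241 and 157 CPM in DTR. Every DTR input library was below every control input library, and replicates 1 and 2 were the higher pair in control. Its LFC after damage was -1.37 ± 0.25 in input (adjusted p = 0.00077) and -0.97 ± 0.25 in IP (adjusted p = 0.011), and its LFC between IP and input was -1.84 ± 0.25 in control (adjusted p = 1.1e-05) and -1.43 ± 0.25 in DTR (adjusted p = 0.00017).

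Pmp22, a tetraspan protein of compact myelin that epithelia also express (ENSMUSG00000018217, chromosome 11, 63128982 to 63159547, plus strand), stood at 1266, 1242, 743 and 918 CPM in control input and at 516, 445, 783 and 435 CPM in DTR input. The groups overlapped through DTR input replicate 3, and the LFC was -0.96 ± 0.22 (adjusted p = 0.0064). In IP, Pmp22 stood at 299, 282, 206 and 174 CPM in control and at 215, 175, 255 and 193 CPM in DTR, an LFC of -0.16 ± 0.22 (adjusted p = 0.7). With replicates 1 and 2 alone, Pmp22 fell in IP (LFC -0.58, adjusted p = 0.015), and with replicates 3 and 4 alone its LFC in IP was 0.27 (adjusted p = 0.61). All IP libraries lay below all input libraries, with an LFC between IP and input of -2.07 ± 0.22 in control (adjusted p = 7.8e-07) and -1.27 ± 0.22 in DTR (adjusted p = 0.00019).

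Cnp, the cyclic nucleotide phosphodiesterase of noncompact myelin, stood at 678, 602, 470 and 459 CPM in control input and at 317, 251, 300 and 244 CPM in DTR input, without overlap. In IP it stood at 150, 145, 115 and 113 CPM in control and at 119, 96.2, 97.2 and 103 CPM in DTR, where the groups overlapped. Its LFC after damage was -0.93 ± 0.13 in input (adjusted p = 4.9e-05) and -0.33 ± 0.13 in IP (adjusted p = 0.095, but 0.027 with the block and 0.03 in DESeq2). Between IP and input the LFC of Cnp was -1.97 ± 0.13 in control (adjusted p = 2.1e-09). Mal, a proteolipid of membrane rafts that sorts proteins to the sheath, stood at 193, 176, 120 and 133 CPM in control input and at 115, 101, 120 and 83.7 CPM in DTR input. Its LFC of -0.54 ± 0.18 in input did not pass (adjusted p = 0.054, but 0.0084 with the block, 0.046 with median-centred libraries, 0.038 in a fit of the compared groups alone and 0.015 in DESeq2). Mal stood at 54.2, 63.0, 45.8 and 33.2 CPM in control IP and at 55.2, 42.9, 59.5 and 38.0 CPM in DTR IP, below every input library, with an LFC between IP and input of -1.63 ± 0.18 in control (adjusted p = 1e-06) and -1.12 ± 0.18 in DTR (adjusted p = 7.8e-05).

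Of the other 3, Pllp fell and Ncmap and Gpm6b rose in the IP after damage. Pllp (plasmolipin), a tetraspan protein of myelin and endosomes, averaged 62.2 ± 9.66 CPM (SD, n = 4) in control input, 27.3 ± 4.88 in DTR input, 47.0 ± 7.28 in control IP against 25.0 ± 4.20 CPM in DTR IP. It fell in both fractions after damage (LFC -1.18 ± 0.16 in input, adjusted p = 4.7e-05, and -0.94 ± 0.16 in IP, adjusted p = 0.00044), while its LFC between IP and input in control was -0.40 ± 0.16 (adjusted p = 0.06, but 0.019 with the pool as a block and 0.027 in a fit of the compared groups alone). Ncmap, the noncompact myelin associated protein, averaged 61.4 ± 5.69 CPM in control input, 63.5 ± 14.2 in DTR input, 62.4 ± 9.4 in control IP against 95.6 ± 23 CPM in DTR IP, and rose in DTR IP against control IP (LFC 0.59 ± 0.18, adjusted p = 0.032). Gpm6b, a membrane proteolipid related to the main myelin proteolipid and shared with neurons, averaged 438 ± 13.2 CPM in control IP against 602 ± 84.5 CPM in DTR IP, a rise of 0.52 ± 0.11 (adjusted p = 0.0036), and 600 ± 67.4 and 655 ± 84.9 CPM in control and DTR input. Gpm6b was lower in control IP than in control input (LFC -0.33 ± 0.11, adjusted p = 0.026), which did not pass without any one of control input replicates 1, 2 and 4 or control IP replicates 3 and 4 (adjusted p from 0.052 to 0.095). In DTR cochleae Ncmap was higher in IP (LFC 0.58 ± 0.18 over input, adjusted p = 0.016), which did not pass without DTR input replicate 1 or 2 or DTR IP replicate 3 (adjusted p from 0.053 to 0.067). The rise of Ncmap after damage in IP did not pass without any one of control IP replicates 1 and 2 or DTR IP replicates 3 and 4 (adjusted p from 0.078 to 0.11).

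**Figure D3:**
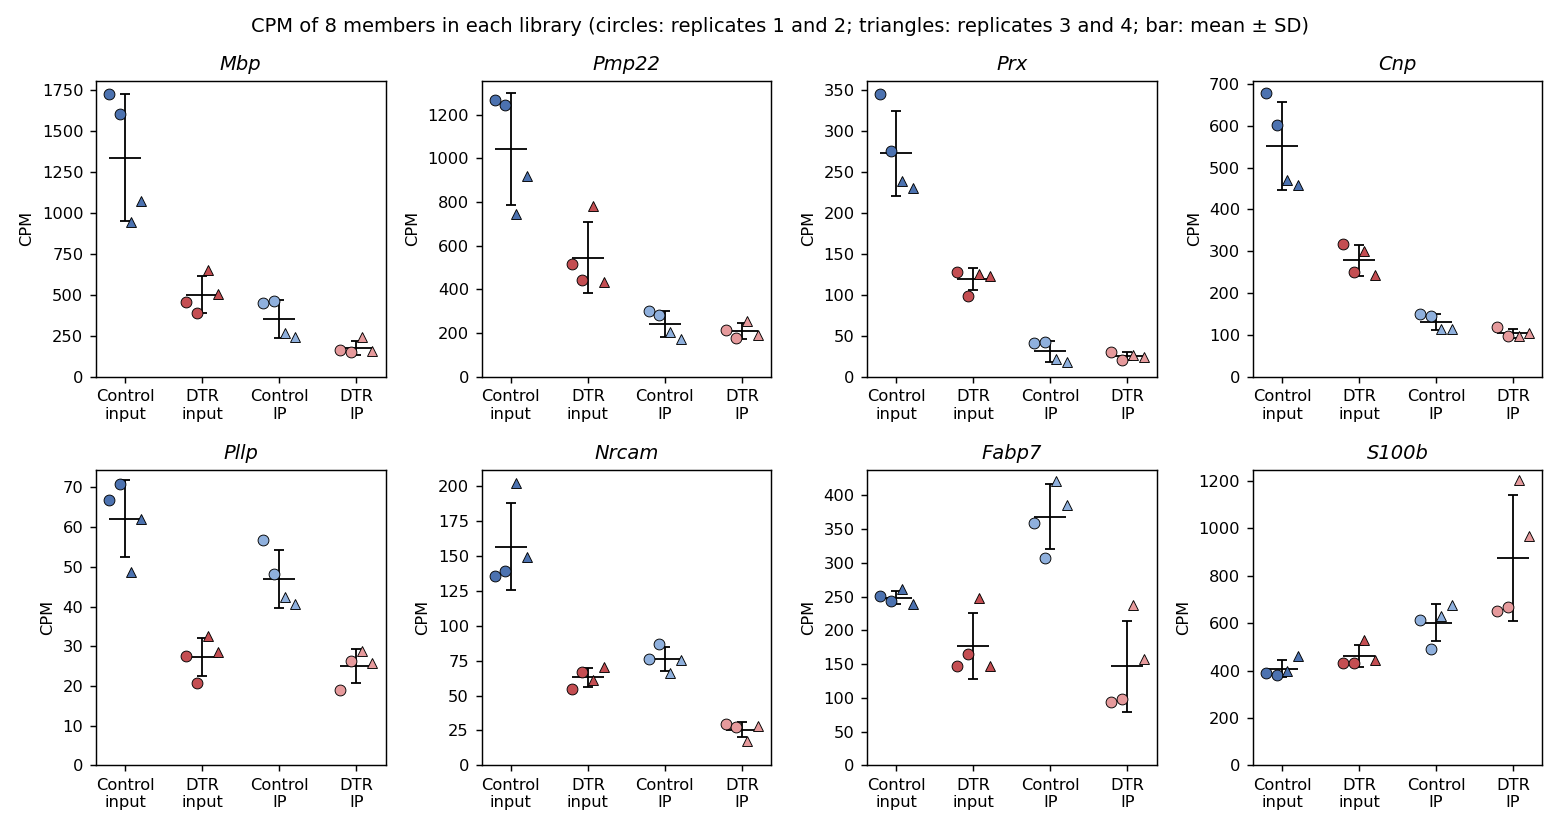
CPM (y axis, from 0) of 8 genes in each library of the 4 groups (x axis), with circles for replicates 1 and 2, triangles for replicates 3 and 4, and bars for the mean ± SD of 4 libraries. In Mbp, Prx, Cnp, Pllp and Nrcam every DTR input library lies below every control input library, and in S100b and Fabp7 every control IP library lies above every control input library.

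Among the glial adhesion and cytoskeletal link proteins, all 5 were lower in IP than in input in both treatments. Of all genes tested, 20.7% were lower in IP in control and 20.5% in DTR. Prx (periaxin), the scaffold that with Drp2 ties the Schwann cell membrane to dystroglycan (ENSMUSG00000053198, chromosome 7, 27499324 to 27520214, plus strand), stood at 345, 276, 240 and 231 CPM in control input and at 128, 99.1, 126 and 123 CPM in DTR input. In IP it stood at 41.1, 42.6, 21.4 and 18.4 CPM in control and at 30.3, 19.8, 26.5 and 24.4 CPM in DTR. The input groups were well apart and the IP groups overlapped. The LFC after damage was -1.15 ± 0.20 in input (adjusted p = 0.00057) and -0.24 ± 0.20 in IP (adjusted p = 0.48). In IP, Prx fell with replicates 1 and 2 alone (LFC -0.75, adjusted p = 0.029), and with replicates 3 and 4 alone its LFC was 0.27 (adjusted p = 0.33). Its LFC between IP and input, -3.15 ± 0.20 in control (adjusted p = 1.5e-09) and -2.24 ± 0.20 in DTR (adjusted p = 1.1e-07), was the lowest of the 27 genes in either treatment.

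Mag, which holds the innermost glial membrane to the axon, stood at 44.8, 40.6, 31.6 and 35.2 CPM in control input, 18.9, 15.2, 26.7 and 30.1 CPM in DTR input, 7.27, 8.15, 6.85 and 6.24 CPM in control IP and at 5.3, 4.77, 4.61 and 6.67 CPM in DTR IP. It fell in input (LFC -0.78 ± 0.19, adjusted p = 0.0093), where the groups did not overlap, and was lower in IP than input (LFC -2.27 ± 0.19 in control, adjusted p = 4.3e-08). Cadm4, the glial receptor for axonal nectin-like proteins along the internode, stood at 158, 117, 82.5 and 84.0 CPM in control input and at 70.6, 46.9, 50.4 and 46.6 CPM in DTR input. In IP, Cadm4 stood at 48.4, 52.3, 45.2 and 25.6 CPM in control and at 23.9, 21.9, 19.7 and 24.6 CPM in DTR. It fell in both fractions without overlap (LFC -0.99 ± 0.20 in input, adjusted p = 0.002, and -0.90 ± 0.20 in IP, adjusted p = 0.0038), and was lower in IP than in input (LFC -1.33 ± 0.20 in control, adjusted p = 3.5e-05).

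Its relative Cadm2, an immunoglobulin adhesion protein of neurons and glia, moved the other way in the IP. Cadm2 stood at 19.7, 20.4, 15.1 and 14.9 CPM in control input, 25.8, 23.2, 22.4 and 17.8 CPM in DTR input, 8.43, 10.6, 6.79 and 5.66 CPM in control IP and at 12.1, 15.4, 14.5 and 10.2 CPM in DTR IP. It rose in IP after damage (LFC 0.61 ± 0.17, adjusted p = 0.018), although control IP replicate 2 was above DTR IP replicate 4. That rise did not pass without DTR IP replicate 2 or 3 or control IP replicate 3 or 4 (adjusted p from 0.052 to 0.058). Drp2 stood at 25.6, 20.3, 10.8 and 15.6 CPM in control input, 13.4, 7.57, 9.04 and 12.5 CPM in DTR input, 8.13, 8.29, 3.53 and 7.29 CPM in control IP and at 6.84, 4.31, 4.04 and 6.61 CPM in DTR IP. Its LFC of -0.76 ± 0.27 in input did not pass (adjusted p = 0.081, but 0.0075 with the block and 0.035 in DESeq2), and the groups overlapped. Between IP and input the LFC of Drp2 was -1.29 ± 0.27 in control (adjusted p = 0.00093).

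The 5 adhesion proteins grouped under the node of Ranvier, which include the axonal L1cam and the juxtaparanodal Cntn2, did not move together. Nrcam, a cell adhesion molecule of nodes that is also made by neurons and epithelia (ENSMUSG00000020598, chromosome 12, 44328885 to 44601964, plus strand), stood at 135, 139, 202 and 150 CPM in control input, 54.4, 66.6, 60.9 and 70.1 CPM in DTR input, 76.2, 87.2, 66.0 and 75.2 CPM in control IP and at 29.3, 27.6, 17.7 and 28.0 CPM in DTR IP. Damage separated the groups in both fractions. The LFC was -1.28 ± 0.15 in input (adjusted p = 8.7e-06) and -1.61 ± 0.15 in IP (adjusted p = 5.3e-07), and Nrcam alone met the criteria of the study in both. It was also lower in IP than in input (LFC -0.99 ± 0.15 in control, adjusted p = 4.9e-05, and -1.33 ± 0.15 in DTR, adjusted p = 2.4e-06).

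Gldn (gliomedin), which Schwann cells secrete at the node to gather axonal sodium channels, stood at 58.8, 47.4, 30.2 and 33.6 CPM in control input, 28.2, 23.5, 33.1 and 26.3 CPM in DTR input, 7.18, 6.75, 6.08 and 3.6 CPM in control IP and at 5.62, 6.59, 9.67 and 6.08 CPM in DTR IP. Its input groups overlapped and the LFC of -0.57 ± 0.22 did not pass (adjusted p = 0.1). It passed in DESeq2 (adjusted p = 0.034) and with replicates 1 and 2 alone (LFC -1.01, adjusted p = 0.0082). Between IP and input the LFC of Gldn was -2.66 ± 0.22 in control (adjusted p = 2.8e-08) and -1.96 ± 0.22 in DTR (adjusted p = 1.4e-06). L1cam, an axonal adhesion molecule, stood at 17.9, 15.5, 8.32 and 6.21 CPM in control input, 16.6, 12.5, 7.3 and 4.75 CPM in DTR input, 8.43, 8.29, 2.97 and 1.14 CPM in control IP and at 6.88, 4.59, 2.29 and 1.97 CPM in DTR IP. Replicates 1 and 2 were above replicates 3 and 4 in all 4 groups, as Nefl was, and the part of neuronal RNA in these values was not tested. L1cam was lower in IP than input with overlapping groups (LFC -1.25 ± 0.48 in control, adjusted p = 0.045, and -1.30 ± 0.48 in DTR, adjusted p = 0.038), and did not pass without any one of 5 libraries in control (control input replicates 1, 2 and 3, control IP replicates 3 and 4, adjusted p from 0.051 to 0.17) or of 4 in DTR (DTR input replicates 1 and 2, DTR IP replicates 3 and 4, adjusted p from 0.1 to 0.12), nor in edgeR (adjusted p = 0.095 in control and 0.052 in DTR) or DESeq2 (0.11 and 0.057).

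Nfasc, whose glial and neuronal forms sit at the paranode and the node, averaged 33.8 ± 0.82 CPM in control input, 41.2 ± 8.1 in DTR input, 22.4 ± 3.84 in control IP against 29.2 ± 6.94 CPM in DTR IP. It was lower in IP in both treatments (LFC -0.61 ± 0.17 in control, adjusted p = 0.0068, and -0.54 ± 0.17 in DTR, adjusted p = 0.015), and did not pass in DTR without DTR IP replicate 3 (adjusted p = 0.051) or DTR input replicate 4 (adjusted p = 0.058). Cntn2, a contactin of the juxtaparanode, ranged from 1.48 to 10.2 CPM over all 16 libraries and passed in no comparison, although with the pool as a block it was lower in IP (adjusted p = 0.025 in control and 0.0019 in DTR), as it was in DTR in DESeq2 (adjusted p = 0.029).

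Both enzymes of myelin lipid synthesis fell in both fractions, where 5.21% (input) and 7.30% (IP) of all genes tested fell. Ugt8a, which makes galactosylceramide, stood at 62.6, 57.0, 38.1 and 46.6 CPM in control input and at 18.4, 20.8, 30.2 and 19.1 CPM in DTR input. It stood at 23.1, 29.7, 19.7 and 10.9 CPM in control IP and at 10.1, 12.4, 7.79 and 4.21 CPM in DTR IP. The input groups did not overlap, and in the IP control replicate 4 was below DTR replicate 2. The LFC after damage was -1.20 ± 0.28 in input (adjusted p = 0.0058) and -1.27 ± 0.28 in IP (adjusted p = 0.0033), and the LFC between IP and input was -1.33 ± 0.28 in control (adjusted p = 0.0008) and -1.40 ± 0.28 in DTR (adjusted p = 0.00056). Fa2h, which hydroxylates the fatty acids of these lipids, averaged 44.6 ± 8.93 CPM in control input, 25.5 ± 4.16 in DTR input, 36.0 ± 10.9 in control IP against 17.9 ± 4.71 CPM in DTR IP. Its LFC after damage was -0.80 ± 0.20 in input (adjusted p = 0.013) and -1.02 ± 0.20 in IP (adjusted p = 0.0018). The change of Fa2h in input did not pass without control input replicate 1 (adjusted p = 0.053) or DTR input replicate 2 (adjusted p = 0.055). Between IP and input, Fa2h had an LFC of -0.34 ± 0.20 in control (adjusted p = 0.21, and 0.047 with the pool as a block) and of -0.56 ± 0.20 in DTR (adjusted p = 0.038), where it did not pass without any one of DTR input replicates 1, 3 and 4 or DTR IP replicates 2 and 4 (adjusted p from 0.065 to 0.14).

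Of the transcription factors and Dhh, 2 of 5 fell in the input and 0 passed the test in the IP after damage. Of all genes tested, 5.21% fell in the input, and 7.30% fell and 8.44% rose in the IP. Pou3f1, which drives Schwann cells from the promyelinating stage into myelination, averaged 83.8 ± 9.37 CPM in control input and 50.3 ± 2.09 CPM in DTR input (LFC -0.71 ± 0.12, adjusted p = 0.00033). In IP, Pou3f1 averaged 46.7 ± 4.19 CPM in control and 42.0 ± 7.30 CPM in DTR (LFC -0.19 ± 0.12, adjusted p = 0.3). Its LFC between IP and input was -0.82 ± 0.12 in control (adjusted p = 2.2e-05) and -0.30 ± 0.12 in DTR (adjusted p = 0.049), the latter lost without any one of 7 of the 8 DTR libraries (adjusted p from 0.063 to 0.15; it stood without DTR IP replicate 3). Dhh, the hedgehog that Schwann cells send to the forming perineurium, stood at 83.3, 66.8, 52.0 and 44.4 CPM in control input, 44.2, 32.5, 37.2 and 33.9 CPM in DTR input, 15.7, 14.2, 9.43 and 10.3 CPM in control IP and at 12.3, 8.54, 12.4 and 9.8 CPM in DTR IP. The input groups were apart by a small margin, between 44.4 and 44.2 CPM. Dhh fell in input (LFC -0.69 ± 0.18, adjusted p = 0.014), which did not pass without control input replicate 1 or 2 or DTR input replicate 2 (adjusted p from 0.05 to 0.064), and was lower in IP than input (LFC -2.22 ± 0.18 in control, adjusted p = 2.8e-08, and -1.77 ± 0.18 in DTR, adjusted p = 5.7e-07).

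Sox10 did not pass the test between IP and input, with an LFC of 0.01 ± 0.13 in control (adjusted p = 0.96) and 0.03 ± 0.13 in DTR (adjusted p = 0.89). It ranged from 205 to 243 CPM in control input, 143 to 182 CPM in DTR input, 177 to 280 CPM in control IP and 145 to 187 CPM in DTR IP. Its LFC after damage was -0.39 ± 0.13 in input (adjusted p = 0.063) and -0.37 ± 0.13 in IP (adjusted p = 0.064). Both passed with the block (adjusted p = 0.012 and 0.013), without quantile normalization (0.034 and 0.038), with median-centred libraries (0.041 and 0.031), in edgeR (0.043 and 0.017) and in DESeq2 (0.017 and 0.0058). Sox8, a relative of Sox10, ranged from 29.1 to 49.8 CPM in control IP and from 45.4 to 86.6 CPM in DTR IP, where its LFC of 0.68 ± 0.24 did not pass (adjusted p = 0.058, but 0.0013 with the block, 0.037 without quantile normalization and 0.037 in DESeq2). Foxd3, which marks neural crest and early glia, stood at 20.4, 16.1, 13.8 and 12.8 CPM in control input, 16.1, 9.16, 9.76 and 8.8 CPM in DTR input, 9.24, 6.46, 4.47 and 4.15 CPM in control IP and at 6.94, 4.84, 6.96 and 4.8 CPM in DTR IP. Its input groups overlapped through DTR replicate 1, with an LFC of -0.56 ± 0.22 (adjusted p = 0.11, and 0.013 with the block), and it was lower in IP than input (LFC -1.27 ± 0.22 in control, adjusted p = 0.00013).

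The other glial genes included the 2 that were higher in control IP than in control input. S100b, a calcium-binding protein of glia, stood at 390, 380, 400 and 460 CPM in control input, 433, 433, 529 and 445 CPM in DTR input, 614, 490, 632 and 675 CPM in control IP and at 652, 669, 1206 and 969 CPM in DTR IP. All IP libraries were above the input libraries of the same treatment, with an LFC of 0.64 ± 0.17 in control (adjusted p = 0.0044) and 1.04 ± 0.17 in DTR (adjusted p = 7.3e-05). S100b rose in IP after damage (LFC 0.58 ± 0.17, adjusted p = 0.021), though not without control IP replicate 2 (adjusted p = 0.066), nor with median-centred libraries (adjusted p = 0.11), in edgeR (adjusted p = 0.081) or in DESeq2 (adjusted p = 0.053). Fabp7, a fatty acid-binding protein of glial precursors, also marked the inner phalangeal cells in the study, which are among the supporting cells ablated in DTR mice. It averaged 248 ± 9.48 CPM in control input, 177 ± 48.6 in DTR input, 368 ± 48 in control IP against 147 ± 67.2 CPM in DTR IP. It fell in IP (LFC -1.43 ± 0.24, adjusted p = 0.00033), without overlap. Its LFC in input was -0.50 ± 0.24 (adjusted p = 0.22, but 0.0044 with replicates 1 and 2 alone). The 8 supporting cell markers, of which Fabp7 is not 1, also summed lower in DTR IP, at 518 to 669 CPM, than in control IP, at 1339 to 1577 CPM, and their part in the fall of Fabp7 was not tested. Its LFC between IP and input in control, 0.62 ± 0.24 (adjusted p = 0.046), did not pass without any one of 7 of the 8 control libraries (adjusted p from 0.067 to 0.11; it stood without control IP replicate 2). Gfap, the intermediate filament of astrocytes and nonmyelinating Schwann cells, ranged from 1.07 to 3.98 CPM over all libraries and passed in no comparison.

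The replicate pairs were also fitted apart, a split chosen after seeing the data, and no test compared the size of the changes between them. In control input, replicates 1 and 2 were both above replicates 3 and 4 in 19 of the 27 genes, against 22.0% of all genes tested, and in control IP in 20 genes, against 30.6%. In DTR input this held for 3 genes, against 21.3%, and in DTR IP for 2, against 24.5%. With replicates 1 and 2 alone, all 12 genes that fell in the input passed (16 of 27 in all, against 4.45% of genes), with a median LFC of -1.27 over the 12. With replicates 3 and 4 alone, all 12 LFC were negative with a median of -0.76, and 4 genes passed (Cnp, Nrcam, Pllp and Prx), against 1.54% of genes. In the IP, replicates 1 and 2 alone gave 9 genes that fell, against 4.78% of genes, which were the 7 above with Pmp22 and Prx. Replicates 3 and 4 alone left Nrcam and Ugt8a of the 7 genes that fell, against 3.14% of genes, with all 7 LFC negative. The 12 and the 7 genes were picked in a fit that includes these same libraries, so their signs within a pair are no independent support. The part of the neuronal and melanocyte RNA of replicates 1 and 2 in these results was not tested.

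**Figure D4:**
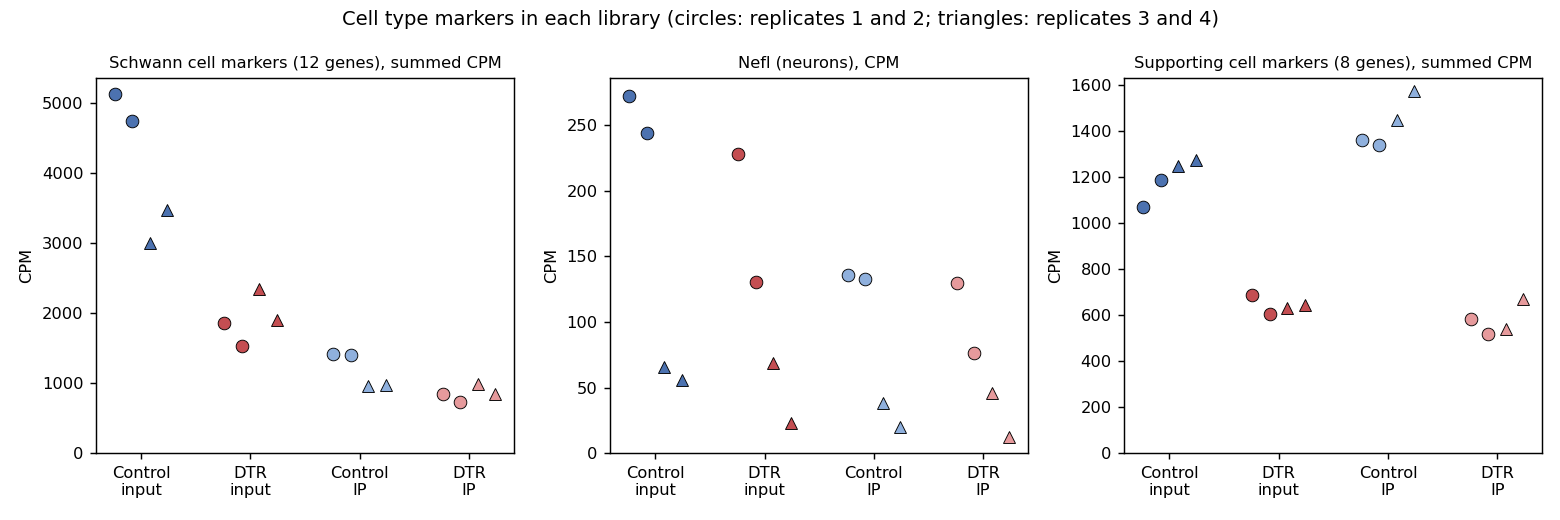
Summed CPM of 12 Schwann cell markers, CPM of the neuronal gene Nefl and summed CPM of 8 supporting cell markers (y axes, from 0) in each library of the 4 groups (x axes), with circles for replicates 1 and 2 and triangles for replicates 3 and 4. Schwann cell markers are highest in control input, at 3004 to 5128 CPM, and Nefl separates the replicate pairs in control input, whereas supporting cell markers lie at 1072 to 1276 CPM in control input, 1339 to 1577 CPM in control IP and at most 688 CPM in both DTR groups.

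Other genes of the pathway were counted in the same way, from lists also chosen with earlier results of these data known. Of 23 Schwann cell and myelination genes outside the 30, 14 fell and 0 rose in DTR input, 10 fell and 1 rose in DTR IP, and 16 were lower and 2 higher in control IP than in control input. The shares of all genes tested that were lower and higher in these comparisons were 5.21% and 7.17% in input, 7.30% and 8.44% in IP, and 20.7% and 19.3% between control IP and input. Their median LFC was -0.58 in input and -0.38 in IP after damage, and -1.10 between control IP and input, against -0.02, 0.00 and 0.00 over all genes tested. Gjb1, the connexin of noncompact myelin, stood at 7.7, 7.07, 4.88 and 5.95 CPM in control input and at 2.25, 3.17, 3.06 and 3.44 CPM in DTR input (LFC -1.05 ± 0.19, adjusted p = 0.00089). Adgrg6, the adhesion receptor that starts myelination, stood at 97.8, 97.0, 109 and 83.8 CPM in control input and at 44.8, 37.8, 40.3 and 47.7 CPM in DTR input (LFC -1.15 ± 0.14, adjusted p = 1.5e-05), and at 85.5, 91.9, 98.6 and 71.6 CPM in control IP against 31.5, 28.4, 19.6 and 18.5 CPM in DTR IP (LFC -1.88 ± 0.14, adjusted p = 2.7e-08). Adgrg6 had an LFC between control IP and input of -0.14 ± 0.14 (adjusted p = 0.47). Sox2, a factor of immature Schwann cells and also of supporting cells, fell in input (LFC -1.05 ± 0.14, adjusted p = 1.9e-05) and in IP (LFC -1.40 ± 0.14, adjusted p = 6.1e-07). Of 11 axonal and paranodal partners, 3 fell in input, against 5.21% of all genes, 1 fell in IP, against 7.30%, and 0 rose. Their median LFC was -0.12 in input and 0.05 in IP.

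Markers of the other cells in the tissue are given beside these counts. After damage, 5.21% of all genes tested fell and 7.17% rose in input, and 7.30% fell and 8.44% rose in IP. Counts of 1 in these short lists lie near those shares. Supporting cell markers, 8 in all, summed to between 1072 and 1276 CPM in control input and 607 and 688 CPM in DTR input, and 1339 to 1577 CPM in control IP and 518 to 669 CPM in DTR IP. Of these, 7 fell in input and 6 in IP. Neuron markers, 11 in all, summed to between 674 and 1324 CPM in control input and 381 and 1077 CPM in DTR input, where the groups overlapped. In IP they summed to 1102 to 1701 CPM in control IP and 651 to 1018 CPM in DTR IP, where the groups did not overlap. After damage 2 fell in each fraction, Syt1 and Isl1 in both. Between control IP and control input, 4 neuron markers were lower and 1 (Isl1) was higher, against 20.7% and 19.3% of all genes. Their median LFC there was -0.97, although the mean sum was 1015 CPM in control input and 1430 CPM in control IP. The sum therefore does not stand for most genes of the list. Macrophage markers, 7 in all, summed to 90.6 to 95.8 CPM in control input and 126 to 204 CPM in DTR input, and 5 rose in each fraction. Of 7 mesenchyme markers, 1 rose in input and 5 in IP. Of 8 hair cell markers, 1 fell in input, and 1 fell and 3 rose in IP. Oligodendrocyte markers, 7 in all, summed to between 20.8 and 35.9 CPM in input and 11.1 and 16.7 CPM in IP, 2 of the 7 were tested, and 0 passed in either comparison after damage. Of 7 melanocyte markers, 4 were tested, 0 passed in input and 1 fell in IP. No marker of any list was at 0 in every library. The part of each cell type in the changes of the Schwann cell and myelin genes was not tested.

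The sequences before the start sites were examined for the letters that SOX and EGR factors, the regulators of this programme, are known to bind. RefSeq windows of 250 bases upstream (GRCm38.p6) were found for 25 of the 30 genes, with 33 start sites. The SOX letters ACAANG, on either strand, were in 14 of the 33 windows (11 genes), against 36.3% of all 32851 windows, and the EGR letters GTGGGCG, on either strand, were in 1 of 33, against 7.02%. Of the genes that fell in DTR input, 4 were picked by hand, and their windows without an annotated exon are shown, with matches in capitals. These are Mag at chr7:30914923-30915172 (minus strand, start number 2, 2 SOX matches), Cadm4 at chr7:24481773-24482022 (plus strand, 1 SOX and 2 EGR matches), Prx at chr7:27499074-27499323 (plus strand, no match) and Nrcam at chr12:44328635-44328884 (plus strand, no match). The starts of the Mag and Prx windows were not found in an annotated transcript. A match describes letters and not binding.
Mag: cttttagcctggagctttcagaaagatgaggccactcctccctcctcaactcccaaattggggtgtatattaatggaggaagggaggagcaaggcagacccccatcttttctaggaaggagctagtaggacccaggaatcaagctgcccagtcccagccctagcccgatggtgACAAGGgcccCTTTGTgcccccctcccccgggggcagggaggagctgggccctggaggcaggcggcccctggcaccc
Cadm4: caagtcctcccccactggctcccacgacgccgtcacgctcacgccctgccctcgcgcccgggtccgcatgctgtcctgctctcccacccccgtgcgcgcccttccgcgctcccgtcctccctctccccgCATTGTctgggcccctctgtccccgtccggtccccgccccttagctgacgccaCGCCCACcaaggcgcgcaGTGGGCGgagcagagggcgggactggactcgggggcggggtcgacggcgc
Prx: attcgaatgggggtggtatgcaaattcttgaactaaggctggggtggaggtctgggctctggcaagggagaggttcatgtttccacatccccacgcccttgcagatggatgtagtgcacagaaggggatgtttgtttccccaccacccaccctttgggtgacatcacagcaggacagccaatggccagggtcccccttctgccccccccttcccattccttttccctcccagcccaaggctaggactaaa
Nrcam: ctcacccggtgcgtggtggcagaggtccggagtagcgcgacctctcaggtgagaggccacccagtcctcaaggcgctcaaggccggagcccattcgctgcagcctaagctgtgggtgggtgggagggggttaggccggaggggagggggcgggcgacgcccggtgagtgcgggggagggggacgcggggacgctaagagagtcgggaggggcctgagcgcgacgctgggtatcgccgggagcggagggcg
The matches lay in the windows of Mag and Cadm4, and those of Prx and Nrcam held neither set of letters.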

How the data were processed

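RNA of 16 libraries was analysed, 4 per group, from P4 mouse cochleae. The deposited values are CPM made by the authors, 1 file per library. Per the methods, reads were aligned to GRCm38 with HISAT2 and counted with HTSeq, while the submitters' processing notes name TopHat, and the strand setting and annotation release are not given in the sources used here. Libraries were made from amplified full-length cDNA, so limits from read numbers cover counting error only. Of the CPM, 100% were whole multiples of 1 read within 0.01 reads, and whole reads were recovered for edgeR (4.0.16) and DESeq2 (1.42.0). CPM were quantile normalized, log2 transformed with a pseudocount of 0.5 and kept at 0.5 CPM or more in all libraries of at least 1 group (16994 genes), and were fitted over 16 libraries with limma (3.58.1, R 4.3.3, with a trend), which was tested on simulated data. An LFC on this scale understates the change of low genes. For the criteria of the study, values under 1.08 CPM were raised to it.

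Replicate numbers come from the labels. Deviations of libraries of the same number correlated at 0.288 to 0.559 over all pairs of groups compared, so the number (control against DTR) or the pool (IP against input, interaction) was used as a block in an alternative. The members and gene lists were chosen with earlier results of these data known. Genes are accounted for by role, with values per library for genes that met the criteria after damage, or passed the interaction, or had an absolute LFC of at least 1 between IP and input. Positions came from the GRCm38 annotation, in which 18 of the 30 genes overlap another gene, and sequences from RefSeq (GRCm38.p6).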

Additional observations from a re-analysis of the deposited data

Results flagged for a closer look

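In 7 of 108 groups of 4 libraries of the tested genes, 1 library stood apart from the other 3 by Dixon's test, where chance gives about 1 in 20. Mbp was highest in DTR IP replicate 3, at 240.8 CPM. Ncmap was highest in control input replicate 4, at 69.8 CPM. Cadm4 was highest in DTR input replicate 1, at 70.6 CPM, and Foxd3 in the same library, at 16.1 CPM. Nrcam was lowest in DTR IP replicate 3, at 17.7 CPM. Sox8 was lowest in control input replicate 2, at 32.7 CPM. S100b was highest in DTR input replicate 3, at 528.8 CPM.

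The change after damage differed between IP and input for Prx (LFC 0.91, adjusted p = 0.036) and Pmp22 (LFC 0.80, adjusted p = 0.04) in limma with the pool as a block. Without the block the adjusted p was 0.55 for Prx and 0.8 for Pmp22, and over edgeR, DESeq2, the scalings and the replicate pairs it ranged from 0.34 to 0.9 for Prx and from 0.45 to 1 for Pmp22.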

How the results depend on the processing

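Of the values of single genes under the alternatives, 2722 kept their direction and their side of the threshold, 112 no longer passed, 55 newly passed and 0 that passed changed sign. With replicates 3 and 4 alone, chosen after seeing the data, 4 genes fell in DTR input in place of 12, 2 fell and 1 rose in DTR IP in place of 7 and 4, and 0 were higher in control IP than in input in place of 2; with replicates 1 and 2 alone, 2 rose in DTR IP. Without a filter 2 genes rose in DTR IP, and in a fit of the compared groups alone 1 did. Without quantile normalization, with median centring and without a filter, 1 gene was higher in control IP than in input. Leaving out 1 library in turn gave 2 to 4 genes that rose in DTR IP (2 without control IP replicate 2 or DTR IP replicate 3), 1 to 2 higher in control IP than in input (2 only without control IP replicate 2) and 1 to 2 higher in DTR IP than in input (1 without DTR input replicate 1 or 2 or DTR IP replicate 3); the counts of genes that fell ranged from 10 to 14 in input and 7 to 8 in IP. The replicate block gave 16 genes lower in DTR input (7.99% of all genes), 9 lower and 5 higher in DTR IP (11.1% and 12.2%), and 2 genes positive in the interaction in place of 0; calls it changed stand beside each gene. The causes were not tested. Depth limits Mobp, Mog and Opalin, which had at most 24, 10 and 5 reads in any library.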
